A study of Homo sapiens with 3 samples.

Results

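The human microRNAs hsa-miR-155-5p, hsa-miR-146a-5p and hsa-miR-146b-5p, 3 of the 2019 microRNA probes on the array, were followed across 3 arrays of MCF12A cells. MCF12A is a non-tumorigenic line of human breast epithelium that was grown here as a monolayer. Members were taken by name, and each was printed as 4 spots per array. All groups were grown in DMEM/F12 with horse serum, epidermal growth factor, hydrocortisone, insulin and cholera toxin. There was 1 array per group: unexposed cells (control), cells kept with ethanol for 4 weeks, and cells kept as long with acetaldehyde, into which cells oxidize ethanol. The labels give the exposures as 2.5 mM ethanol and 1 mM acetaldehyde in one field, and as 2.5% and 1% in another. They also mention a clone selected in soft agar, and tie none of these arrays to it. With 1 array per group there was no replicate, so no p-value was computed. Every error given is the SD over 4 spot positions of 1 array or pair of arrays, which covers printing and reading and not the spread between cultures.

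The members are known as microRNAs that respond to NF-kB, a transcription factor of inflammatory and stress signalling that is held in the cytoplasm by inhibitory I kappa B proteins until an upstream kinase removes them. miR-155 is cut from the transcript of MIR155HG, is known from activated immune cells and from many breast tumours, and represses SOCS1 and SHIP1, which restrain inflammatory signalling. miR-146a and miR-146b act in the opposite sense: they repress the adaptors TRAF6 and IRAK1 upstream of NF-kB and so form a feedback brake. Mature microRNAs find their targets mainly through the seed, bases 2 to 8.

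The mature sequences (RefSeq, GRCh38.p14, 5′ to 3′, seed in capitals) are shown because the seeds separate the members and because the miR-146 pair is nearly identical.
miR-155-5p: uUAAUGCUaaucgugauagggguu
miR-146a-5p: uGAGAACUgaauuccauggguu
miR-146b-5p: uGAGAACUgaauuccauaggcug
miR-155-5p lies on chromosome 21 at 25573983 to 25574006 (plus strand), inside the host gene MIR155HG. miR-146a-5p lies on chromosome 5 at 160485372 to 160485393 (plus strand), inside MIR3142HG. miR-146b-5p lies on chromosome 10 at 102436520 to 102436542 (plus strand), with no other gene over it in the RefSeq table used. The array targets of miR-155-5p (23 of 24 bases) and miR-146b-5p (22 of 23 bases) lack 3′ bases of the sequences shown. No other of the 2019 array targets had the miR-155-5p seed. The miR-146 seed was found on the array in these 2 members alone. Counted from 1 at the 5′ end, miR-146a-5p differs from miR-146b-5p by G18A and U21C, and 20 of the 22 bases of their array targets are the same. Whether either probe also read the other microRNA was not tested. The closest target to that of miR-155-5p, aligned from the same start without gaps, was miR-26b-5p with 13 of 21 bases the same.

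Detection was judged on each array against its 1368 empty spots. The mean of a probe had to lie over their median plus 3 SDs, and 50% or more of its spots had to lie over it too. The level was 146 for control, 243 for ethanol and 98.8 for acetaldehyde. It detected 775, 347 and 1430 microRNAs in that order. On the ethanol array the empty spots were brighter than 68.6% of the microRNA probes, against 29.0% on the control array and 4.75% on the acetaldehyde array. A second level, chosen after seeing the data, was therefore taken from the dim microRNA probes of each array. It was 119, 128 and 117. All 6 epithelial marker microRNAs, such as miR-205-5p and miR-200c-3p, were detected on every array. Of 7 microRNAs that mark blood and immune cells, none was detected with ethanol or in control, and miR-150-5p, miR-223-3p and miR-486-5p were detected with acetaldehyde, where the level was lowest. The level from the dim probes detected 2 of the 7 in control, none with ethanol and 3 with acetaldehyde. miR-142-3p, miR-142-5p, miR-144-3p and miR-451a were detected nowhere under either level.

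hsa-miR-155-5p, the pro-inflammatory member, stood higher on the ethanol array than on either of the others. Its 4 control spots read 438, 415, 437 and 396 in the intensity units of the scanner. Its ethanol spots read 655, 686, 659 and 714, and its acetaldehyde spots read 255, 335, 372 and 330. The ranges of the 3 arrays did not overlap: all ethanol spots lay above all control spots, and all acetaldehyde spots lay below them. The first acetaldehyde spot was the lowest of the 12. It was detected on all 3 arrays under both levels. miR-155 is also abundant in immune cells. The 7 marker probes of blood and immune cells read 87.9 to 136 in control, 96.8 to 120 with ethanol and 64.3 to 180 with acetaldehyde. In the deposited table these markers summed to 74.8, 148 and 117 in the same order. The sums add values near the floor, and with ethanol none of the 7 was detected under either level. Their part in the miR-155-5p values was not tested.

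**Figure D1:**
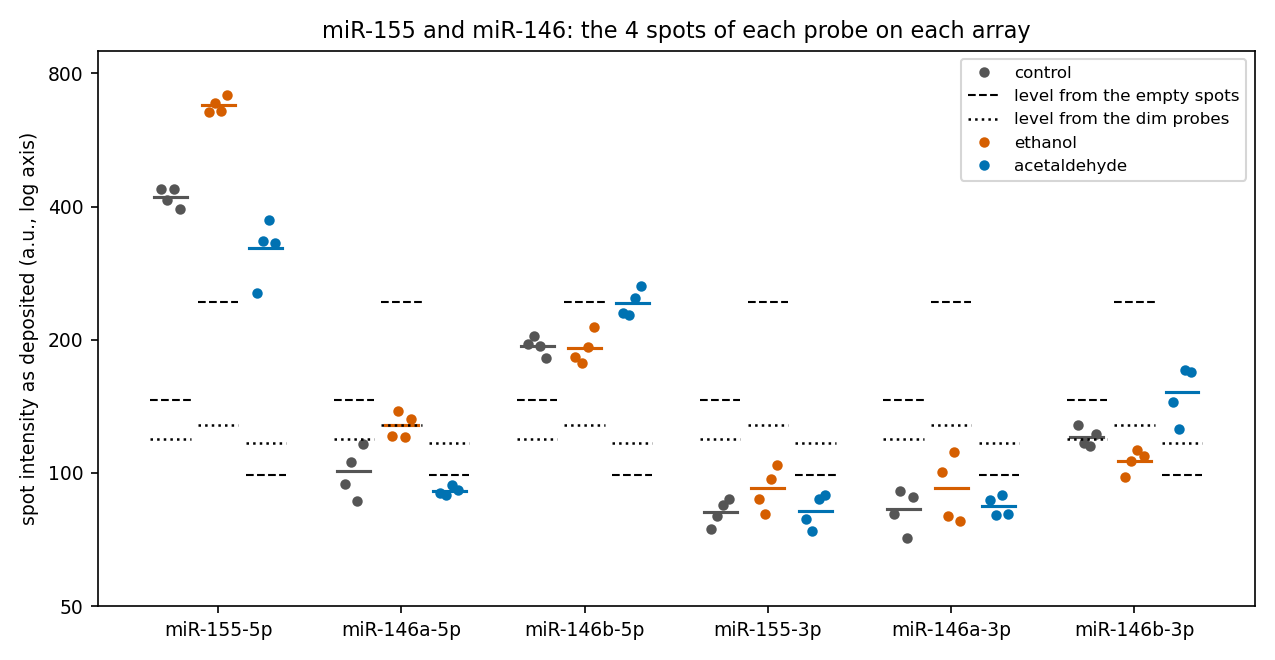
Spot intensities as deposited (arbitrary units, log axis) for miR-155-5p, miR-146a-5p, miR-146b-5p and the opposite arms of their hairpins. Points are the 4 spots of a probe on the control (grey), ethanol (orange) and acetaldehyde (blue) arrays, solid lines their means, and dashed and dotted lines the detection levels from the empty spots and from the dim probes of that array; miR-155-5p lies above both levels on every array and miR-146a-5p below the level from the empty spots on every array.

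After background correction and quantile normalization, miR-155-5p had an intensity of 364 in control, 732 with ethanol and 286 with acetaldehyde. With ethanol it stood 2.01-fold above control, a log2 difference of 1.01 ± 0.13 (SD, n = 4 spot positions), and it was higher at all 4 positions. Of 347 microRNAs detected on both arrays, 0.865% were at least 2-fold higher, which is 3 microRNAs with miR-155-5p among them, and 0.288% were at least 2-fold lower. A value higher at all 4 positions was common, found for 112 of the 347. miR-155-5p had the third highest difference. The other two were miR-19b-3p at 1.49, which had a dark spot on the control array, and miR-4668-5p at 1.36. The direction was the same under all 13 other processing settings, with values from 0.70 to 1.37. It fell short of 2-fold in 4 of them: without normalization (0.70), with scaling on the 5S ribosomal RNA probes (0.92), with probe-by-probe scaling on the spike probes (0.82) and in the second printed block alone (0.96). The 2-fold call thus depends on the scaling and on the spots used.

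With acetaldehyde miR-155-5p differed from control by -0.35 ± 0.25 (log2, SD over 4 spot positions), 1.27-fold lower, and it was lower at all 4 positions, as were 290 of 774 microRNAs detected on both arrays. It had rank 176 from the lowest. In that comparison 1.81% of 774 were at least 2-fold lower and 1.03% at least 2-fold higher, and no member was among them. The value lay below 0 under all 13 other settings, from -1.0 with scaling on the spike probes to -0.0028 with scaling on the detected median, that is the median of the microRNAs detected on all arrays. Its size is therefore not settled by these arrays.

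The exposures were at different doses, and both comparisons with control share 1 control array, so the values are set side by side. With acetaldehyde miR-155-5p was 2.56-fold lower than with ethanol (-1.35 ± 0.22), at rank 6 from the lowest of 347. In that comparison 4.32% of 347 microRNAs were at least 2-fold lower and 2.02% at least 2-fold higher. Under all 13 other settings it also stayed at least 2-fold lower, from -1.02 without normalization to -2.38 with scaling on the spike probes. The order of the levels was thus ethanol, control, acetaldehyde under every setting, and the gap between control and acetaldehyde came close to 0 under 1 of them.

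**Figure D2:**
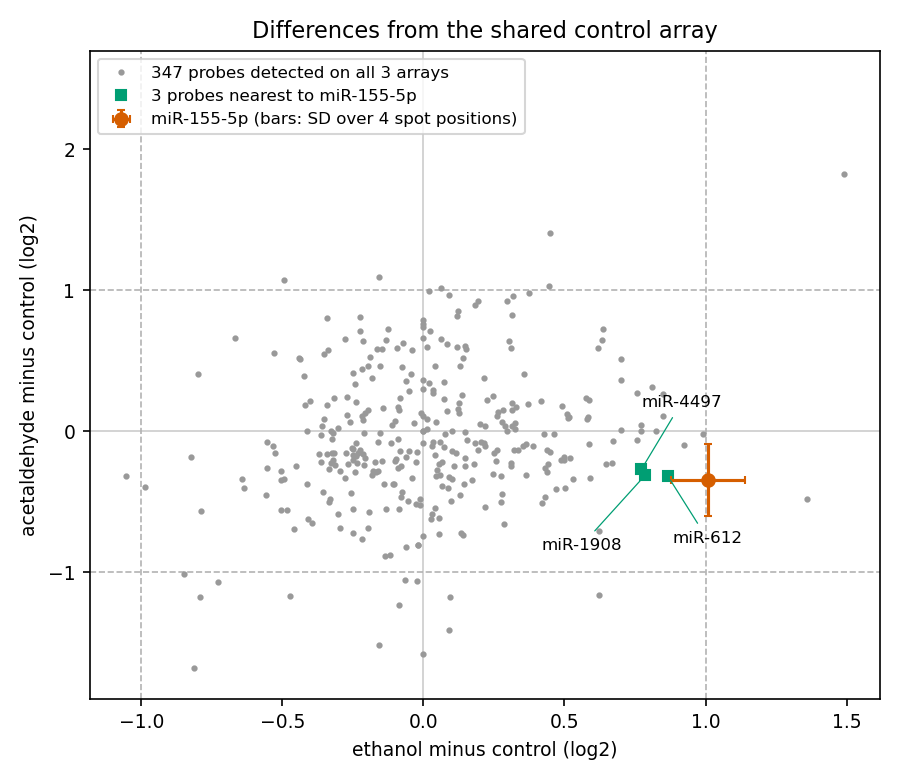
Log2 differences from the shared control array with ethanol (horizontal) and with acetaldehyde (vertical) for the 347 microRNAs detected on all 3 arrays (grey points). miR-155-5p (orange, with SD bars over 4 spot positions) lies at 1.01 and -0.35, beside the 3 nearest probes (green squares), and dashed lines mark 2-fold; the axes share the control array, so the cloud shows no independent agreement.

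Of the 347 microRNAs detected on all 3 arrays, 90 (25.9%) had values above control with ethanol and below control with acetaldehyde, as miR-155-5p did. The 3 probes nearest to it in the pair of differences were miR-612, miR-1908 and miR-4497. miR-612 lay closest, at a distance of 0.14, with 0.87 ± 0.082 for ethanol and -0.32 ± 0.20 for acetaldehyde. miR-1908 stood at 0.79 ± 0.32 and -0.31 ± 0.30, and miR-4497 at 0.77 ± 0.095 and -0.27 ± 0.050. These neighbours were found over 3 arrays, that is over 2 differences per probe. Their array targets hold a larger share of G than the 30.4% of the 23-base array target of miR-155-5p. The shares were 36.0% in miR-612, 52.4% in miR-1908 and 47.1% in miR-4497. Base content moved with the differences among the 347 microRNAs detected on all arrays. The 206 of them with a G share of at least 30.4% had median differences of 0.089 with ethanol and -0.18 with acetaldehyde, and the 141 below that share had -0.14 and 0.13. That cut is the share of miR-155-5p itself. The ethanol difference of miR-155-5p was the highest of the 206, and 2 of the 141 stood above it. The part of base content in the miR-155-5p values was not tested.

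hsa-miR-146b-5p, a brake on NF-kB signalling, stood within 2-fold of control with acetaldehyde under every setting, in a direction that turned with the scaling. Its control spots read 196, 204, 194 and 182, and its ethanol spots read 182, 178, 193 and 214. The control and ethanol ranges overlapped. Its acetaldehyde spots read 230, 227, 248 and 264, all above those of the other arrays before normalization. The probe was detected on the control and acetaldehyde arrays. On the ethanol array its mean of 192 was not well above the empty spots (level 243) but lay above the level from the dim probes (128).

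Normalized intensities of miR-146b-5p were 182 in control, 211 with ethanol and 206 with acetaldehyde. The acetaldehyde value differed from control by 0.17 ± 0.17 (log2), 1.13-fold higher, which is about the spread of the spots, at rank 224 from the highest of 774. It ranged from -0.21 with scaling on the spike probes to 0.79 with scaling on the detected median, so its direction turned with the scaling. No fold is given against the ethanol array under the level from the empty spots. Under the level from the dim probes the ethanol value differed from control by 0.21 ± 0.20 and the acetaldehyde value from ethanol by -0.039 ± 0.037. Neither reached 2-fold. Under that level 0.368% of 816 microRNAs stood 2-fold or more above control with ethanol and 0.245% stood as far below it. With acetaldehyde against control these shares were 0.766% and 1.34% of 1045, and with acetaldehyde against ethanol 1.53% and 1.91% of 786. None of the 13 other settings brought any miR-146b-5p difference to 2-fold.

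**Figure D3:**
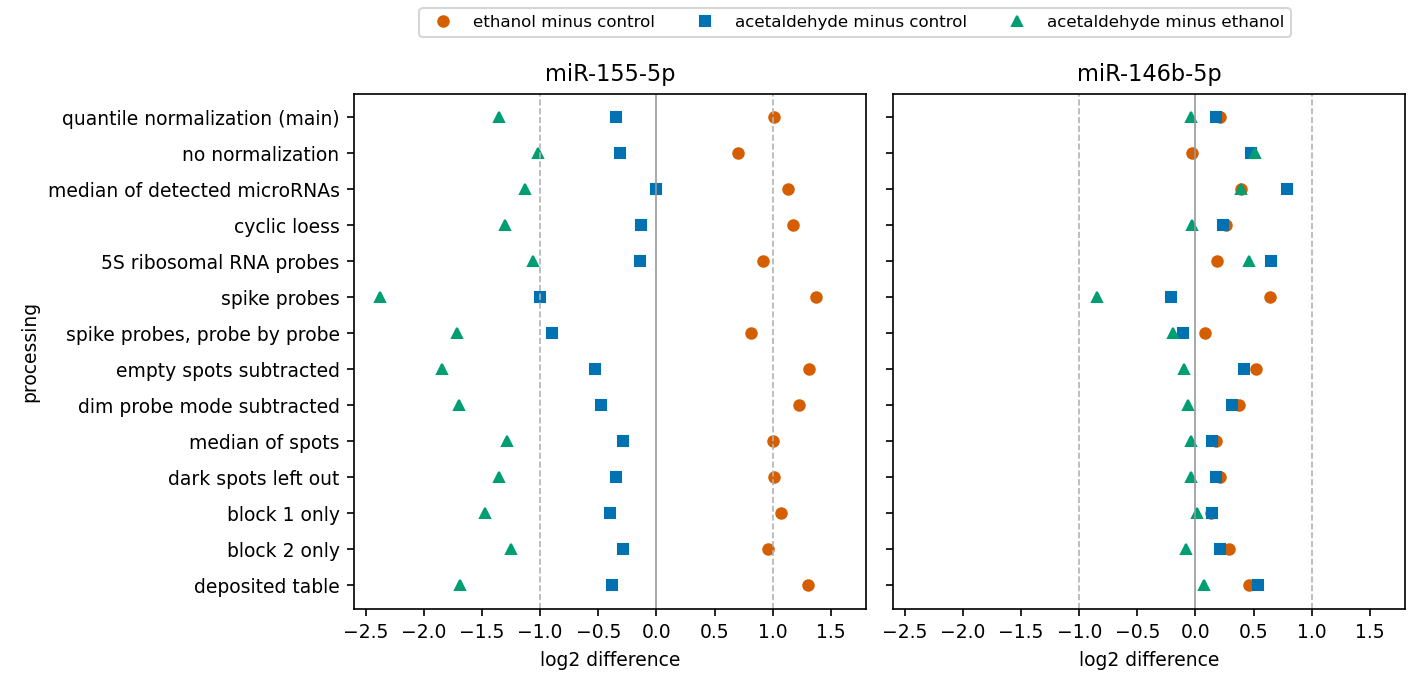
Log2 differences of miR-155-5p (left) and miR-146b-5p (right) under the main processing and 13 other settings, 1 row each, for ethanol minus control (circles), acetaldehyde minus control (squares) and acetaldehyde minus ethanol (triangles). Dashed lines mark 2-fold; miR-155-5p keeps the same side of 0 in each comparison, whereas miR-146b-5p, not well above the empty spots on the ethanol array, stays within 2-fold and changes side.

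hsa-miR-146a-5p, the sister brake that shares the seed, was detected on none of the 3 arrays. Its control spots read 94.6, 106, 86.2 and 117. Its ethanol spots read 121, 138, 121 and 133, and its acetaldehyde spots read 89.9, 89.2, 93.8 and 91.7. The ethanol spots were the highest and overlapped with neither other array. Before normalization the median microRNA probe read 127, 119 and 132 on the control, ethanol and acetaldehyde arrays, so the ethanol array was the dimmest of the 3 at its median. At the floor that array was the brightest: the empty spots had medians of 106, 148 and 65.8 in the same order. The dim probe mode, the commonest intensity of the dim probes, was 92.9, 101 and 79.1. Relative to that mode miR-146a-5p read 1.085, 1.27 and 1.15. The part of the floor in the higher ethanol spots was not tested. The ethanol mean of 128.2 fell just short of the level from the dim probes, 128.3, and far short of that from the empty spots, 243. With the means of all 3 arrays below both detection levels, no fold is given.

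The opposite arms, which are usually degraded after the guide arm is loaded, gave little signal. miR-155-3p and miR-146a-3p were detected on no array under either level, with probe means of 81.7 to 92.4 and 82.7 to 92.4. miR-146b-3p was detected on the acetaldehyde array at a mean of 153. It was not well above the empty spots on the control array (121) or the ethanol array (107), and the level from the dim probes added the control array.

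To place the members in their pathway, 17 other microRNAs reported elsewhere as induced through NF-kB were read. This list and the next were chosen with earlier results of these data known. With ethanol 11 of the 17 were detected on both arrays, and none was at least 2-fold higher or lower. Over all 347 the shares were 0.865% and 0.288%, so none of 11 lies near them. The median difference of the 11 was -0.081, against 0.00 over all 347, with 3 values above 0 and 6 below. That median turned positive with scaling on the detected median (0.094), with cyclic loess (0.025) and with scaling on the spike probes (0.34). miR-21-5p, abundant in many cultured cells, held the same rank on all 3 arrays and so had a difference of 0.00 by construction. The same was true of miR-24-3p between control and ethanol, and miR-23b-3p stood at -0.36 ± 0.045. The lowest was miR-224-5p at -0.82 ± 0.31, named after its values were seen. The highest of the detected list members with ethanol was miR-125b-5p at 0.12 ± 0.12. miR-155-5p, at 1.01, had rank 3 from the highest of 347. It would lie above any list without miR-19b-3p and miR-4668-5p, so its place above this list says nothing particular about NF-kB.

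With acetaldehyde 12 of the 17 were detected on both arrays and again none reached 2-fold. Over all 774 the shares were 1.03% higher and 1.81% lower, so none of 12 lies near them. The median difference of the 12 from control was 0.46, against -0.074 over all 774, with 9 values above 0 and 2 below. It was -0.35 with scaling on the spike probes and -0.25 with probe-by-probe scaling on them, and above 0 under the other 11 settings. Marker lists of cell types also differed in this comparison. The 6 epithelial markers had a median of 0.35, with miR-203a at 1.07 ± 0.093 and miR-31-5p at 1.02 ± 0.10 the 2 that reached 2-fold. The endothelial marker miR-126-3p stood at 0.93 ± 0.090, and the 2 of 5 mesenchymal markers detected on both arrays had a median of -0.19. Their part in the list median was not tested. miR-24-3p stood at 0.66 ± 0.085 and miR-23b-3p at -0.025 ± 0.089. The highest was miR-125b-5p at 0.86 ± 0.12, named after its values were seen, and the lowest was miR-224-5p at -0.19 ± 0.052. Between the exposures the list median was 0.64, against -0.10 over all 347, whereas miR-155-5p stood at -1.35. Base content also moved with this comparison. The 141 microRNAs with a G share below that of miR-155-5p had a median of 0.33, and the 206 others, miR-155-5p among them, had -0.31. The part of base content in this contrast was not tested. The list median was -0.67 under scaling on the spike probes and -0.013 when these were scaled probe by probe.

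**Figure D4:**
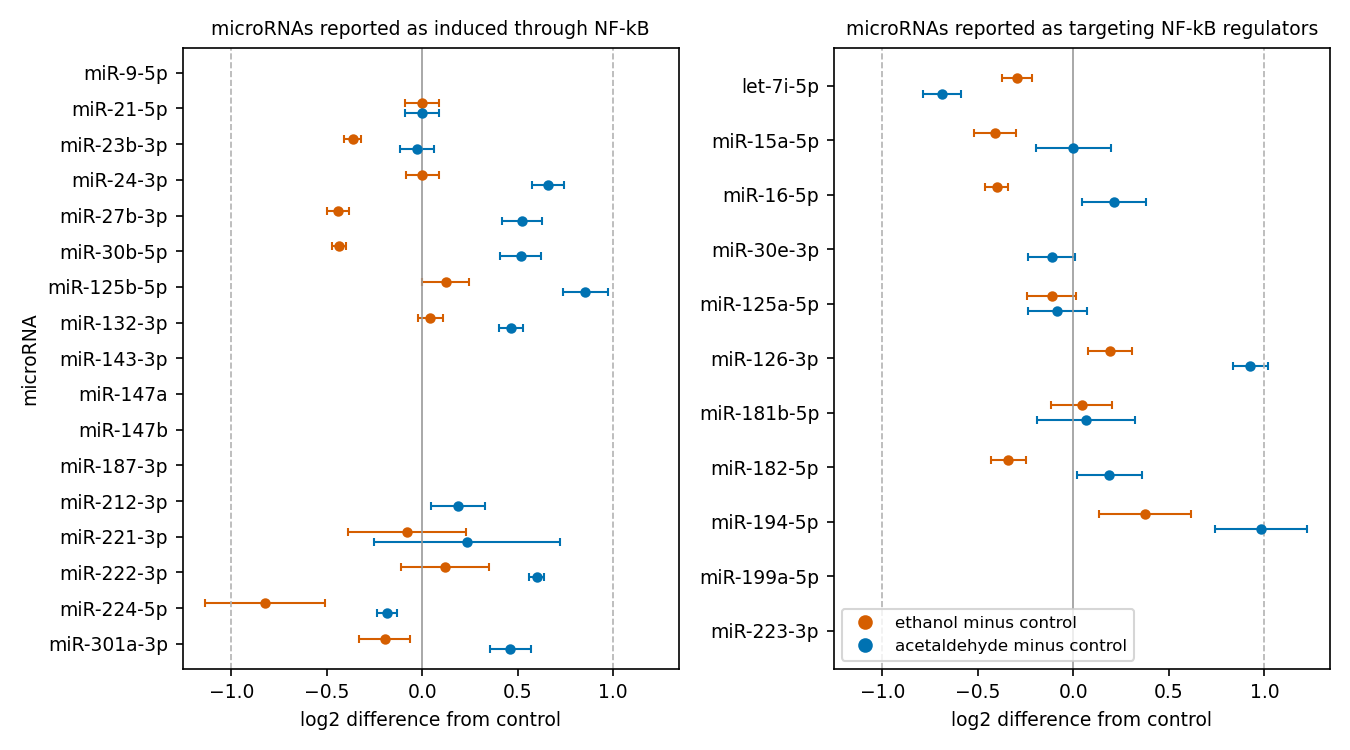
Log2 differences from control with ethanol (orange) and acetaldehyde (blue) for 17 microRNAs reported as induced through NF-kB (left) and 11 reported to target its regulators (right). Points are shown where a probe was detected on both arrays, bars are the SD over 4 spot positions, and dashed lines mark 2-fold, which no point reaches.

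Of 11 microRNAs reported to target parts of the pathway, 8 were detected on the control and ethanol arrays. On the control and acetaldehyde arrays 9 were detected. None was at least 2-fold different in any comparison. Over all detected microRNAs the shares in either direction were 0.288% to 4.32%, so none among so few lies near them. The median was -0.20 with ethanol and 0.068 with acetaldehyde, against 0.00 and -0.074 over all microRNAs detected on both arrays. Scaling on the spike probes turned the list medians to 0.22 and -0.68. Probe-by-probe scaling on the spike probes and the first block alone also turned the acetaldehyde median, to -0.57 and -0.029. miR-16-5p, reported to target IKK alpha, stood at -0.40 ± 0.060 with ethanol and 0.21 ± 0.17 with acetaldehyde. let-7i-5p, which targets TLR4, stood at -0.29 ± 0.079 and -0.69 ± 0.099. miR-125a-5p, which targets TNFAIP3, stood at -0.11 ± 0.13 and -0.085 ± 0.15. The widest difference was that of miR-194-5p, reported to target TRAF6, at 0.98 ± 0.24 with acetaldehyde, named after its values were seen. miR-223-3p, an immune cell microRNA in this list, was detected on the acetaldehyde array alone.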

How the data were processed

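Cy5 microarrays of a service provider were made from 2 µg of total RNA per sample, which was poly(A)-tailed and tagged, per the labels' protocols. The deposited spot files hold the median intensity of each spot, neither background-subtracted nor normalized, as their empty spots show. The deposited series table holds 1 intensity per probe and array, already background-subtracted and normalized by the authors in a way that no label or header states. The table served as an alternative, set to at least 1 before log2. Spots were corrected with normexp (offset 50, limma 3.58.1, R 4.3.3), which draws differences of dim probes towards 0. Values were taken to log2, averaged over 4 spots and quantile normalized over 2019 probes. Python 3.11.15, pandas 2.3.3 and NumPy 2.4.6 were used. Before normalization the median probe difference from control was -0.12 with ethanol and 0.21 with acetaldehyde. The steps were also run on simulated arrays, all built from the signal and the empty spots of the control array. Only probes brighter than any member in control were changed there. The simulation therefore cannot show how the unlike floors of the 3 arrays affect the members. No test was possible with 1 array per group, and differences of 2-fold or more were counted. The number of arrays limits the precision.

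Named were the members, their opposite arms, microRNAs of the same seed, the 3 nearest probes (Euclidean distance), and of each list those at least 2-fold different and the 3 brightest. Members and lists were chosen with earlier results of these data known. In the alternatives, subtracted values were set to at least 16. Dark spots were those under 50% of their probe's median after the median of the empty spots was subtracted. They were sought only in probes whose subtracted median passed a minimum.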

Additional observations from a re-analysis of the deposited data

Results flagged for a closer look

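miR-155-5p differed from control in opposite directions with the exposures, by 1.01 with ethanol and by -0.35 with acetaldehyde (log2), at all 4 spot positions in each case. The acetaldehyde value was -0.0028 with scaling on the median of the detected microRNAs, and 90 of 347 microRNAs (25.9%) had the same pair of signs. The difference between exposures was not tested, since each had 1 array.

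The table deposited by the authors served as an alternative and not as the main values. In it miR-146a-5p had an intensity of 51.5 on the ethanol array, against 5.85 on the control array and 4.01 on the acetaldehyde array. A probe set chosen after seeing these values gives their context. Of 619 microRNAs under 10 in that table on both the control and acetaldehyde arrays, 5 had at least this value on the ethanol array. miR-146a-5p itself is counted among the 5, as the lowest of them. The median of the 619 on the ethanol array was 3.92. In the spot files the ethanol mean of miR-146a-5p was not well above the empty spots. The depth of the array readout, that is signal over background, does not allow a fold.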

How the results depend on the processing

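No paired analysis was possible because each group had 1 array, and no replicate could be left out. Values below are log2 differences that moved by more than the spot SD, first for miR-155-5p and then for miR-146b-5p. With ethanol against control, miR-155-5p read 0.70 without normalization, 1.17 with cyclic loess, 1.37 with the spike probes, 0.82 with these probe by probe, 1.32 with the empty spots subtracted, 1.22 with the dim probe mode subtracted and 1.30 in the deposited table. With acetaldehyde against control it read -0.0028 with the median of detected microRNAs, -1.0 with the spike probes and -0.90 with these probe by probe. With acetaldehyde against ethanol it read -1.02 without normalization, -1.13 with the detected median, -1.06 with the 5S probes, -2.38 and -1.72 with the spike probes in both forms, -1.84 and -1.70 with the empty spots or the dim probe mode subtracted, and -1.69 in the deposited table. For miR-146b-5p with ethanol against control the values were -0.028 without normalization, 0.64 with the spike probes, 0.52 with the empty spots subtracted and 0.46 in the deposited table. With acetaldehyde against control they were 0.48 without normalization, 0.79 with the detected median, 0.65 with the 5S probes, -0.21 and -0.11 with the spike probes, 0.42 with the empty spots subtracted and 0.54 in the deposited table. With acetaldehyde against ethanol they were 0.51 without normalization, 0.39 with the detected median, 0.46 with the 5S probes, -0.85 and -0.19 with the spike probes, -0.098 with the empty spots subtracted, 0.013 and -0.078 in the single blocks and 0.073 in the deposited table. The cause of these shifts was not tested. Of the 13 settings 2, the dim probe mode and the probe-by-probe spikes, were chosen after seeing the data.

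No dark spot was flagged in a member. The rule looked only at probes well above the empty spots. It could therefore flag neither miR-146 member on any array, nor miR-155-5p on the acetaldehyde array. A level of 5 SDs left the detection of the members as it was, and the level from the dim probes moved the ethanol array from 1 detected member to 2. Counts of microRNAs at least 2-fold apart depended on the scaling, the background subtraction and the spots used. With ethanol against control they ranged from 1 to 30 higher and 0 to 9 lower, against 3 and 1. With acetaldehyde against control they ranged from 0 to 63 and 10 to 167, against 8 and 14. Between exposures they ranged from 0 to 14 and 12 to 225, against 7 and 15. Signal over background limits both miR-146 members, and for miR-146b-5p the scaling also turned the direction.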
